A study of Mus musculus with 6 samples.

Results

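To assess how the enzymes that conjugate foreign compounds or reduce and oxidise carbonyl groups differed between Apcfl/fl hepatocarcinoma and normal liver, 31 genes were examined. They are the genes in the authors' table of called probes whose symbol begins with Gst, Ugt, Sult, Akr, Cbr, Aldh, Adh, Ces, Fmo, Ephx or Nqo, and they make up 31 of the 2114 mRNA genes that could be named there. 33 probes read them, and for genes with more than 1 probe the brightest was taken. 9 of the 11 families had a member, and Adh and Nqo had none. The table held only probes that the authors had already selected on this same contrast, by a fold change of at least 2 and a p of at most 0.05 over the 6 arrays. That each gene differs between the groups is therefore a property of the table, its p-values are given as a description, and a gene missing from it was not examined. The direction of the difference was not part of the selection.

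Both groups were C57Bl/6 mice whose liver was collected at 12 months. The Apcfl/fl mice are homozygous for a hypomorphic floxed allele of Apc, a brake on Wnt/β-catenin signalling, and no Cre was stated for them, so the allele is present in every cell and not in hepatocytes alone. They carried HCC, and the sample titles call the material liver cancer tissue. The labels do not say how much of the surrounding liver went with the tumour. Apc+/+ mice had no tumour. Each group had 3 arrays, and RNA depleted of rRNA was copied with random primers into Cy3-labelled cRNA for a single-colour array. In bulk tissue, fewer cells of a type and less RNA per cell cannot be told apart.

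Detoxification runs in steps. Reductases, oxidases and hydrolases of the Cbr, Akr, Aldh, Fmo, Ephx and Ces families uncover or alter a reactive group, and transferases of the Gst, Ugt and Sult families then attach glutathione, glucuronic acid or sulfate, which makes the product soluble enough to be exported into bile or blood. Hepatocytes hold most of this capacity. Many of the genes answer to the transcription factor NRF2, which binds antioxidant response elements, to the aryl hydrocarbon receptor, which binds xenobiotic response elements, or to the nuclear receptor CAR.

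Levels below are the authors' quantile-normalised log2 values, and differences are Apcfl/fl minus Apc+/+ on that scale. The standard error (SE) and the adjusted p come from limma fitted to the scanner intensities of all 45640 tested probes, with Benjamini-Hochberg adjustment over all of them. The differences on the 2 scales lay within 0.225 of each other for every member. HCC arrays 1 and 2 differed by less than the technical noise of the scanner (mean chi-square per probe 0.774 over 29685 probes). The other pairs within a group gave 1.99 to 15.1. HCC arrays 1 and 2 were counted as 1 sample, which left 2 HCC samples and 3 Apc+/+ samples. Apc+/+ arrays 2 and 3 were the closest of those other pairs, at 1.99, while Apc+/+ array 1 gave 6.37 and 7.56 with them. They were still counted as 2 samples, and whether they were independent was not tested. The arrays lay in 2 rows of positions according to the file headers. Row 1 held the 3 HCC arrays and Apc+/+ array 1, and row 2 held Apc+/+ arrays 2 and 3, so that row and group were partly tied. The share of probes well above background ran from 50.8% to 82.8% of probes per array.

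16 of the 31 genes were higher in Apcfl/fl HCC and 15 were lower. Of all 2114 named genes, 1219 were higher (57.7%), against 51.6% of the enzymes. The median difference was 0.93 for the enzymes and 1.08 for all named genes, and the median size without regard to sign was 1.77 and 1.52. 14 enzymes (45.2%) differed by at least 2 log2 units, as did 604 of all named genes (28.6%). An adjusted p below 0.05 with at least a 2-fold change was met by 9 enzymes, 5 higher and 4 lower. Over the whole array that threshold was met by 878 probes (1.92%), of which 469 were higher (1.03%) and 409 lower (0.896%). With the 6 arrays counted as 6 samples, 21 enzymes passed, and 3441 probes of the array did (7.54%). The groups did not overlap for any of the 31 enzymes, where 33.8% of all tested probes had groups that did not overlap. The like comparison is with the 2114 named genes of the same selected table, of which 409 passed (19.3%, against 29.0% of the enzymes), 1455 passed with 6 arrays (68.8%, against 67.7%) and 2111 had groups that did not overlap. Nothing is read from these counts, since the table was selected on the same contrast.

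**Figure D1:**
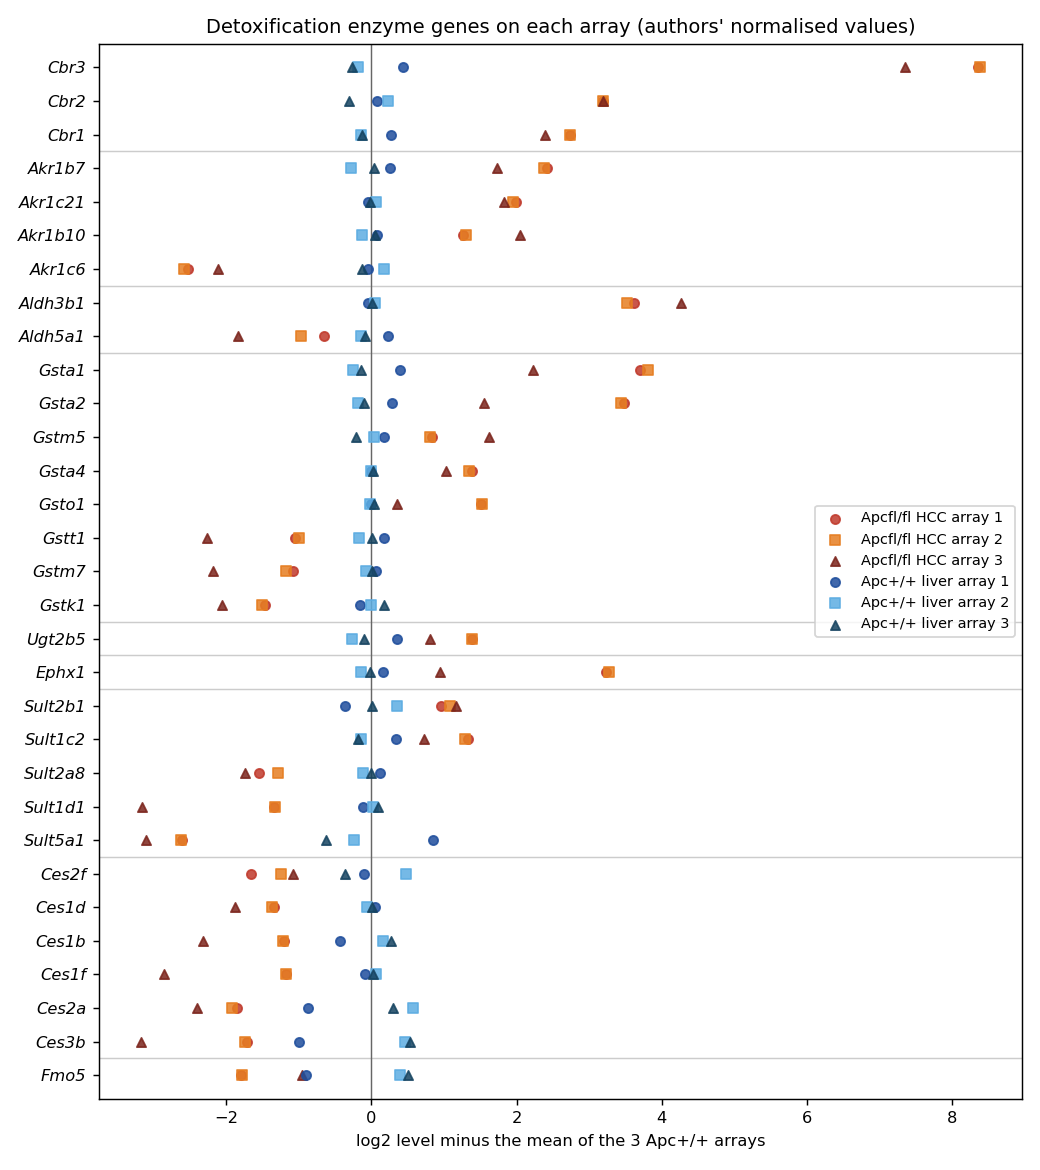
Each point is 1 array and each line of points 1 gene, with the log2 level minus the mean of the 3 Apc+/+ arrays on the horizontal axis and grey lines between families. The HCC arrays (red, orange, dark red) lie to 1 side of the Apc+/+ arrays (blue shades) for all 31 genes, and HCC arrays 1 and 2 nearly coincide while array 3 lies apart for many of them.

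Counting only members that the table held, some families lay on 1 side and others were split, where 57.7% of all named genes were higher. All 3 carbonyl reductases were higher, with a median difference of 3.19, and all 6 carboxylesterases were lower, with a median of -1.89. Of 8 glutathione transferases, 5 were higher and 3 lower (median 1.06). Of 4 aldo-keto reductases, 3 were higher and 1 lower (median 1.78). Of 5 sulfotransferases, 2 were higher and 3 lower (median -1.58). Of the aldehyde dehydrogenases, 1 was higher and 1 lower. Ugt2b5 and Ephx1 were higher and Fmo5 was lower, each the only gene of its family. Taken by chemistry, a grouping not fixed in advance, 7 of the 9 Cbr, Akr and Aldh genes and 8 of the 14 Gst, Ugt and Sult genes were higher. The threshold was passed by 6 of these 9 and 2 of these 14, beside 409 of the 2114 named genes (19.3%) and 1.92% of all tested probes. The grouping leaves out the Ces, Fmo and Ephx genes, which act in the first step as well. All 6 Ces genes and Fmo5 were lower and Ephx1 was higher, and 1 Ces gene passed. No test was made between families.

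**Figure D2:**
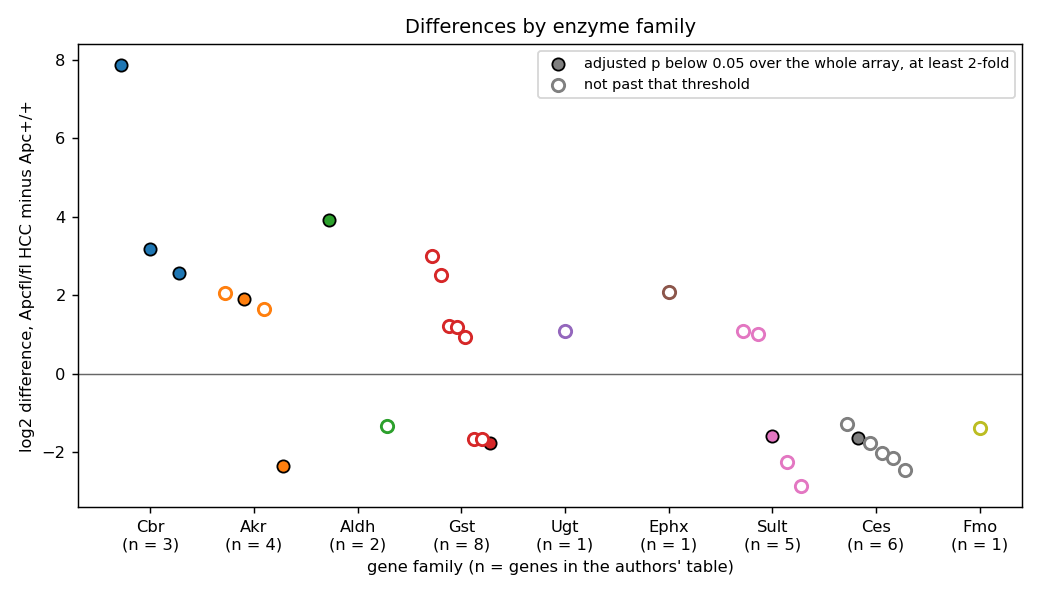
Each circle is 1 gene, placed by its log2 difference (Apcfl/fl HCC minus Apc+/+) on the vertical axis and grouped by family on the horizontal axis. Filled circles mark the 9 genes with an adjusted p below 0.05 over the whole array and at least a 2-fold change, which include the 3 Cbr genes above 0 and 1 of the 6 Ces genes, all of which lie below 0.

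The carbonyl reductases use NADPH to turn ketones, quinones and aldehydes into alcohols. Cbr3, which acts on a narrower range of compounds than its relative Cbr1, was at 15.11, 15.14 and 14.10 in HCC and at 7.19, 6.57 and 6.49 in Apc+/+ liver. The difference of 7.86 (SE 0.41, adjusted p = 0.0125 by limma) is 232-fold, and Cbr3 ranked 1 of the 2114 named genes by rise. HCC array 3 lay 1.02 below the mean of the other HCC arrays, and still far above every Apc+/+ array. The Apc+/+ arrays gave little signal for Cbr3, with a mean of 6.35 on the scanner scale beside 6.13 for the brightest of 20 negative-control probes, although the probe was called well above background on all 6 arrays. With normexp, a correction that models the background of each array, the difference was 6.98.

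Cbr1, which reduces prostaglandins and anthracyclines among others, was at 18.13, 18.13 and 17.79 in HCC and at 15.67, 15.26 and 15.26 in Apc+/+ liver. It was upregulated by 2.56 (SE 0.25, adjusted p = 0.022 by limma), or 5.90-fold. Cbr2, a mitochondrial carbonyl reductase best known from lung, was at 9.06, 9.07 and 9.06 in HCC and at 5.95, 6.11 and 5.57 in Apc+/+ liver. Its rise of 3.19 (SE 0.23, adjusted p = 0.0194 by limma) was the most even across the HCC arrays, but its Apc+/+ mean lay below the brightest negative control, and normexp gave 1.95. Within row 1, against Apc+/+ array 1 alone, the differences were 7.42 for Cbr3, 3.11 for Cbr2 and 2.29 for Cbr1.

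Cbr1 and Cbr3 are adjacent genes on chromosome 16 with no coding gene between them, and both were higher, so the 250 bases before the start of each are shown. The sequences are from RefSeq (GRCm38.p6, 5′ to 3′ on the strand of the gene). Capitals mark matches, on either strand, to the antioxidant response element TGACNNNGC or to the xenobiotic response element core GCGTG, 2 motifs that can overlap.
Cbr1 (chr16:93607587-93607836, plus strand): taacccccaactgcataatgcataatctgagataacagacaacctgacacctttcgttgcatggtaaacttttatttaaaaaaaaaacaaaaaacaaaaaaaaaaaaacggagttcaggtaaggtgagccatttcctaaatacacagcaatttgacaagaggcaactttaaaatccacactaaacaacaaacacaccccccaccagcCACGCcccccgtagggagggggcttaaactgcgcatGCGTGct
Cbr3 (chr16:93682969-93683218, plus strand): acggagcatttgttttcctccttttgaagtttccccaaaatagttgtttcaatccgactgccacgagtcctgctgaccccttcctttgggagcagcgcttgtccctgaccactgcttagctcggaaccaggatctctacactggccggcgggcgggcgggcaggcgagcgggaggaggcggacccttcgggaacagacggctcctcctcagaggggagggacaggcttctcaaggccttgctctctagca
The Cbr1 window held 2 matches to GCGTG and none to TGACNNNGC, and the Cbr3 window held neither. Aligned end to end, 42.3% of the columns of the 2 windows were identical. Windows of this length hold GCGTG in 28.2% of cases and TGACNNNGC in 10.2% over all RefSeq promoters of the table. A match is a description of the letters and not a binding site, and a window without one says nothing of sites elsewhere.

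The aldo-keto reductases also reduce carbonyls with NADPH, and here 4 genes formed 2 neighbouring pairs. Akr1b7, which clears aldehydes formed in steroid synthesis, was at 8.58, 8.53 and 7.89 in HCC and at 6.41, 5.87 and 6.19 in Apc+/+ liver. Its difference was 2.06 (SE 0.29) with an adjusted p of 0.0513 by limma, just outside the threshold, and 2 of the 3 Apc+/+ arrays called it well above background. Its Apc+/+ mean lay below the brightest negative control, and normexp gave 1.17. Akr1b10, a retinal and lipid aldehyde reductase next to Akr1b7 on chromosome 6, differed by 1.66 (SE 0.30, adjusted p = 0.0654 by limma). Its HCC arrays lay between 11.17 and 11.96 and its Apc+/+ arrays between 9.79 and 9.99.

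The Akr1c pair went in opposite directions. Akr1c21, a hydroxysteroid dehydrogenase, was at 11.21, 11.16 and 11.05 in HCC and at 9.17, 9.28 and 9.20 in Apc+/+ liver. It rose by 1.90 (SE 0.18, adjusted p = 0.0232 by limma). Akr1c6, another hydroxysteroid dehydrogenase, with 1 coding gene between it and Akr1c21 on chromosome 13, was at 15.08, 15.03 and 15.50 in HCC and at 17.57, 17.77 and 17.48 in Apc+/+ liver. It fell by 2.33 (SE 0.25, adjusted p = 0.0262 by limma). Within row 1 the differences were 1.95 for Akr1c21 and -2.29 for Akr1c6, close to those over all arrays. Their 250-base promoter windows were 50.7% identical.

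The aldehyde dehydrogenases oxidise aldehydes to acids. Aldh3b1, which acts on long-chain lipid aldehydes, was at 13.33, 13.23 and 13.97 in HCC and at 9.66, 9.75 and 9.72 in Apc+/+ liver. Its rise of 3.91 (SE 0.27, adjusted p = 0.0155 by limma), or 15.1-fold, was the largest of the 31 genes after Cbr3, and HCC array 3 was here the highest. The 3 Apc+/+ arrays were close together. Aldh5a1, the succinate semialdehyde dehydrogenase that ends GABA breakdown, was at 6.59, 6.27 and 5.40 in HCC and at 7.47, 7.10 and 7.15 in Apc+/+ liver. Its difference of -1.32 (SE 0.35, adjusted p = 0.152 by limma) did not pass, its HCC mean lay below the brightest negative control, and it was -0.81 without HCC array 3.

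Glutathione transferases join glutathione to electrophiles, and the 3 alpha class genes that the table held were higher as a group of neighbours. Gsta1 was at 17.35, 17.46 and 15.88 in HCC and at 14.05, 13.39 and 13.51 in Apc+/+ liver, a difference of 2.99 (SE 0.52, adjusted p = 0.0616 by limma). Gsta2 was at 17.35, 17.32 and 15.44 in HCC and at 14.17, 13.69 and 13.78 in Apc+/+ liver, a difference of 2.51 (SE 0.59, adjusted p = 0.107 by limma). In both, HCC array 3 lay well below the other HCC arrays, by 1.52 and 1.90, and above all Apc+/+ arrays. Gsta4, which prefers the lipid peroxidation product hydroxynonenal and is adjacent to Gsta1 on chromosome 9, differed by 1.20 (SE 0.21, adjusted p = 0.0627 by limma), with HCC arrays between 17.28 and 17.63 and Apc+/+ arrays between 16.24 and 16.27. None of the 3 passed with 5 samples. All 3 passed with 6 arrays counted as samples, at adjusted p of 0.0133, 0.0283 and 0.011 by limma for Gsta1, Gsta2 and Gsta4. That fit counts HCC arrays 1 and 2 as 2 samples although they differed by less than the technical noise. It was also passed by 1455 of the 2114 named genes (68.8%) and by 7.54% of all tested probes.

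The promoter windows of Gsta1 and Gsta2 are shown because these genes lie near each other, with 4 coding genes between them, and were higher together, and that of Gstm5 because it was the only member above 0 with an antioxidant response element match. Capitals mark the same motifs as before.
Gsta1 (chr9:78230419-78230668, plus strand): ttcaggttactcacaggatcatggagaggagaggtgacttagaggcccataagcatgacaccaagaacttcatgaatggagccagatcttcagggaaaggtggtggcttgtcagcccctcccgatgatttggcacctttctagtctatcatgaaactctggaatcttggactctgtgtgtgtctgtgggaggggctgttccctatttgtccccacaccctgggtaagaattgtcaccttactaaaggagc
Gsta2 (chr9:78347146-78347395, minus strand): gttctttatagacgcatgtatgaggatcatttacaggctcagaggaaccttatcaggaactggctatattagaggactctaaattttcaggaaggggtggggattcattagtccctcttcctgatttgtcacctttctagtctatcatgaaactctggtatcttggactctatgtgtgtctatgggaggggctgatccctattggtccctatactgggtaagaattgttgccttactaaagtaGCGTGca
Gstm5 (chr3:107895604-107895853, plus strand): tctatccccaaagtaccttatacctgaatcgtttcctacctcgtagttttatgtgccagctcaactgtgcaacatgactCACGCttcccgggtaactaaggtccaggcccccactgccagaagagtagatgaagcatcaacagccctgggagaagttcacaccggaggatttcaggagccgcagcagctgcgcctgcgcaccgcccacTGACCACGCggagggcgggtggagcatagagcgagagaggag
The Gsta1 and Gsta2 windows were 71.4% identical over 266 alignment columns, with a match to GCGTG in Gsta2 alone. In Gstm5 the antioxidant response element match overlaps a reverse-strand match to GCGTG. Over the 28 members with a window, TGACNNNGC was found in 2, Gstm5 and Gstm7, where 11.5% of all genes had it. GCGTG was found in 5 members (Cbr1, Gsta2, Gstm5, Sult1d1 and Sult2b1), where 30.9% of all genes had it. The TCF/LEF motif CTTTGAT, which mediates Wnt/β-catenin signals, was found in Sult2a8 alone, and 3.72% of all genes had it. Gsta4, Ces1d and Ces1f had no window in the table.

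The remaining glutathione transferases were split. Gstm5 and Gstm7, both of the mu class, are adjacent on chromosome 3 and lay on opposite sides. Gstm5 differed by 1.22 (SE 0.32, adjusted p = 0.125 by limma), with HCC arrays between 13.51 and 14.32 and Apc+/+ arrays between 12.49 and 12.88. Gstm7 was at 10.05, 9.95 and 8.95 in HCC and at 11.19, 11.06 and 11.13 in Apc+/+ liver, a difference of -1.65 (SE 0.34, adjusted p = 0.088 by limma). Gstk1, the kappa class enzyme of mitochondria and peroxisomes, was at 14.29, 14.25 and 13.70 in HCC and at 15.60, 15.74 and 15.93 in Apc+/+ liver. It fell by 1.77 (SE 0.26, adjusted p = 0.0467 by limma) and was the only Gst gene past the threshold. Gstt1, of the theta class, differed by -1.65 (adjusted p = 0.126 by limma) and by -1.02 without HCC array 3. Its HCC arrays lay between 12.15 and 13.42 and its Apc+/+ arrays between 14.25 and 14.59. Gsto1, an omega class thioltransferase and dehydroascorbate reductase, differed by 0.93 (adjusted p = 0.282 by limma), the smallest size of the 31, and by 1.52 without HCC array 3. Its HCC arrays lay between 12.94 and 14.11, and array 3, the lowest, was near the Apc+/+ range of 12.57 to 12.62.

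Ugt2b5, a UDP-glucuronosyltransferase that glucuronidates steroids, was at 18.03, 18.03 and 17.44 in HCC and at 17.00, 16.38 and 16.54 in Apc+/+ liver. Its difference of 1.09 (SE 0.33) had an adjusted p of 0.145 by limma. Ephx1, the microsomal epoxide hydrolase, was at 13.12, 13.16 and 10.84 in HCC and at 10.05, 9.75 and 9.88 in Apc+/+ liver. Its difference of 2.09 (SE 0.72, adjusted p = 0.213 by limma) had the widest gap among HCC arrays of the 31 genes. HCC array 3 lay 2.30 below the others, and without it the difference was 3.25.

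Sulfotransferases transfer sulfate to hydroxyl and amino groups of steroids, bile acids and amines. Sult2a8, a bile acid sulfotransferase of mouse liver, was the only one past the threshold. Its HCC arrays lay at or below 5.45 and its Apc+/+ arrays between 6.62 and 6.86, a fall of 1.58 (SE 0.21, adjusted p = 0.0437 by limma). The HCC mean lay below the brightest negative control, and with normexp the difference was -0.63. Sult5a1 was at 6.67, 6.66 and 6.18 in HCC and at 10.13, 9.04 and 8.66 in Apc+/+ liver, a difference of -2.86 (SE 0.47, adjusted p = 0.0667 by limma) that was -3.71 within row 1 and -1.80 with normexp. Sult1d1, which sulfates catecholamines, was at 10.45, 10.45 and 8.62 in HCC and at 11.67, 11.80 and 11.87 in Apc+/+ liver. Its difference of -2.25 (SE 0.53, adjusted p = 0.113 by limma) was -1.33 without HCC array 3.

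The other sulfotransferases were higher by small amounts. Sult2b1, a cholesterol sulfotransferase, was at 6.63, 6.76 and 6.83 in HCC and at 5.31, 6.02 and 5.67 in Apc+/+ liver, a difference of 1.09 (SE 0.27, adjusted p = 0.13 by limma) that was 0.48 with normexp. Sult1c2 was at 8.87, 8.83 and 8.27 in HCC and at 7.88, 7.40 and 7.36 in Apc+/+ liver. Its difference of 1.01 (SE 0.28, adjusted p = 0.177 by limma) was 0.62 in the fit with the row as a block.

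Carboxylesterases hydrolyse esters of drugs and lipids. All 6 that the table held lie on chromosome 8 and all were lower. Ces1d, a triacylglycerol hydrolase, was the only one past the threshold. Its HCC arrays lay between 13.02 and 13.56 and its Apc+/+ arrays between 14.84 and 14.96, a fall of 1.62 (SE 0.24, adjusted p = 0.0475 by limma). Ces3b was at 14.20, 14.17 and 12.73 in HCC and at 14.90, 16.37 and 16.44 in Apc+/+ liver, a difference of -2.45 (SE 0.69, adjusted p = 0.145 by limma). Ces2a, which hydrolyses glycerides as well as drugs, was at 10.95, 10.89 and 10.41 in HCC and at 11.94, 13.38 and 13.10 in Apc+/+ liver, a difference of -2.14 (SE 0.52, adjusted p = 0.11 by limma). For both, Apc+/+ array 1 was the lowest control, and the differences within row 1 were smaller, at -1.45 for Ces3b and -1.28 for Ces2a. A further Ces3b probe gave -2.15 over all arrays and -1.30 within row 1. Ces1b, Ces1f and Ces2f differed by -1.77, -2.02 and -1.27, with adjusted p of 0.113, 0.121 and 0.126 by limma. The HCC arrays of Ces1b lay at or below 11.12 and its Apc+/+ arrays between 11.89 and 12.59. Those of Ces1f lay between 8.94 and 10.62 in HCC and between 11.71 and 11.86 in Apc+/+ liver, and those of Ces2f between 3.83 and 4.40 and between 5.13 and 5.96. The difference of Ces1f was -1.18 without HCC array 3, and Ces2f was well above background on 2 of the 3 HCC arrays and gave -0.32 with normexp.

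Fmo5, a flavin monooxygenase that inserts oxygen into carbonyl compounds, was at 8.87, 8.88 and 9.71 in HCC and at 9.76, 11.06 and 11.17 in Apc+/+ liver. Its difference was -1.37 (SE 0.54, adjusted p = 0.282 by limma). HCC array 3 and Apc+/+ array 1 were almost level, and within row 1 the difference was -0.46. A further Fmo5 probe gave -1.36 over all arrays and -0.58 within row 1.

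**Figure D3:**
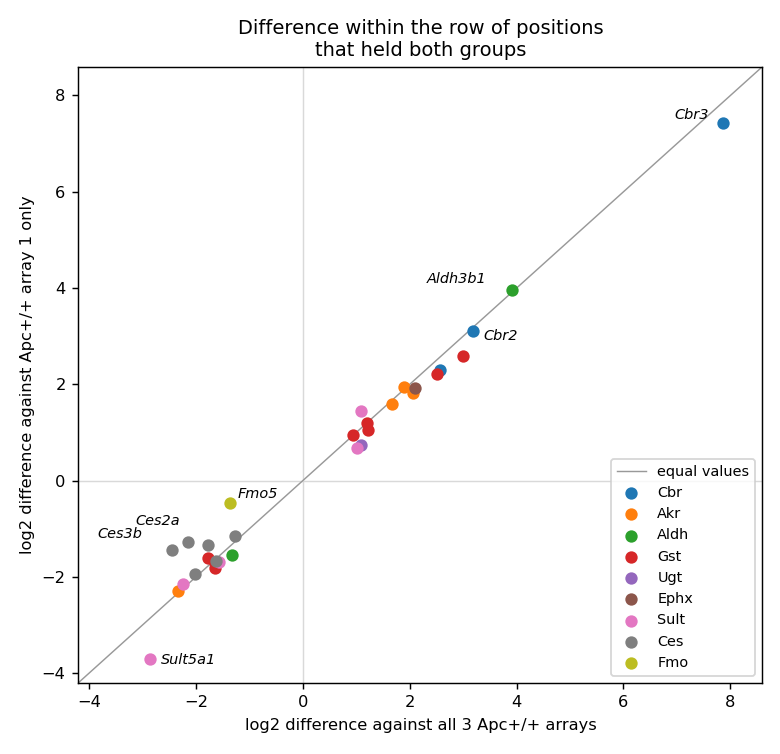
Each point is 1 gene, with its log2 difference against all 3 Apc+/+ arrays on the horizontal axis and against Apc+/+ array 1, the only control in row 1, on the vertical axis. All 31 genes keep their direction, which follows from groups that do not overlap. Fmo5, Ces2a and Ces3b lie nearer to 0 within the row, while Sult5a1 lies farther from it.

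All 31 genes had the same direction within row 1 as over all arrays, as did all 2114 named genes. For the enzymes this follows from groups that do not overlap, so it is no check on the row. Within row 1, 4 enzymes (Fmo5, Sult1c2, Ugt2b5 and Gsto1) had a size under 1. The part that the row of positions played in the other control values cannot be told apart from the animals, since row 1 held 1 Apc+/+ array. In the fit with the row as a block, no enzyme and no probe of the array passed the adjusted threshold by limma. At an unadjusted p of at most 0.05 with a 2-fold change, 19 enzymes passed, as did 3964 of all tested probes (8.69%). Leaving out any 1 Apc+/+ array also left 0 enzymes past the adjusted threshold by limma, and 0, 1 and 0 probes of the array without Apc+/+ array 1, 2 and 3. Past the unadjusted threshold there were then 28, 27 and 27 enzymes, and 5749 (12.6%), 4540 (9.95%) and 4326 (9.48%) of all tested probes.

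The HCC arrays differed among themselves. HCC arrays 1 and 2 lay within 0.41 of each other for every enzyme, with a median gap of 0.04. Array 3 lay apart from their mean by a median of 0.69, against 0.62 over all named genes of the table. That gap was over 1 for 12 of the 31 enzymes (38.7%) and for 587 of the 2114 named genes (27.8%). Array 3 was the lower in 24 enzymes (77.4%) and in 1226 of all named genes (58.0%). Without it, 4 enzymes passed (Aldh3b1, Cbr3, Ephx1 and Gsta2) in place of 9, and the probes called over the whole array went from 878 to 361 (0.791%). The differences of Aldh5a1, Ces1f, Ephx1, Gsto1, Gstt1 and Sult1d1 moved by over 1.5 times.

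**Figure D4:**
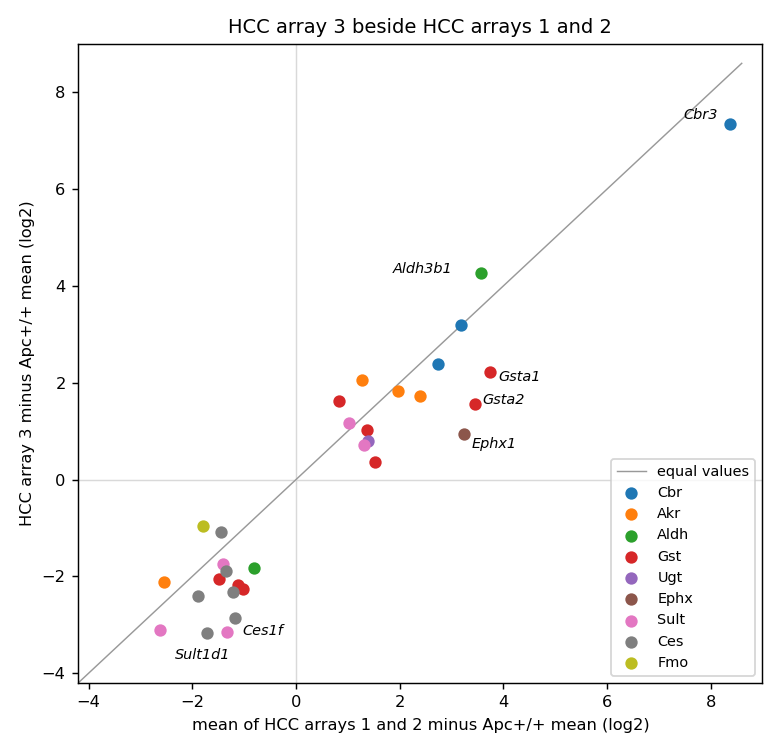
Each point is 1 gene, with the mean of HCC arrays 1 and 2 minus the Apc+/+ mean on the horizontal axis and HCC array 3 minus the Apc+/+ mean on the vertical axis, both in log2 units. Every gene lies on the same side of 0 in both, which follows from groups that do not overlap. Ephx1, Gsta2 and Gsta1 lie well below the line of equal values among the genes above 0. Sult1d1 and Ces1f lie below it among the genes under 0.

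Some members are neighbours in the genome. Only consecutive members were paired, so pairs with another member between them were not counted. 11 such pairs lay within 10 coding genes of each other. Of these, 8 shared a direction and 3 did not (Akr1c6 with Akr1c21, Gstm5 with Gstm7, and Ugt2b5 with Sult1d1). The 8 were Cbr1 with Cbr3, Akr1b10 with Akr1b7, Gsta4 with Gsta1, Gsta1 with Gsta2, and 4 pairs of carboxylesterases. Near-identical copies exist for Gsta1 and Gsta2, for the Ces, Gstm and Akr1c genes and for Ugt2b5. Probe sequences were not used here, and whether such a probe also read a neighbouring copy was not tested.

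Genes that supply or accompany the conjugation enzymes were taken from lists and counted as far as the same table named them. Of all 2114 named genes of that table, 57.7% were higher and 409 (19.3%) passed the threshold. Nothing is read from the counts of these lists or of the cell type markers, since each list named few genes of a selected table. Of 21 genes of glutathione supply and recycling 5 were named, 4 higher and 1 lower. Srxn1, the sulfiredoxin that repairs peroxiredoxins, was at 16.11, 16.08 and 16.82 in HCC and at 13.71, 13.18 and 13.27 in Apc+/+ liver. It rose by 3.07 (adjusted p = 0.0258 by limma) and was the only one of the 5 past the threshold. The cystine importer Slc7a11 differed by 2.62, glutathione synthetase Gss by 2.22, the oxoprolinase Oplah by 1.06 and the glyoxalase Glo1 by -1.55. For Slc7a11, 2 of the 3 Apc+/+ arrays were called well above background, and the Apc+/+ mean lay below the brightest negative control.

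Of 17 genes of cofactor supply 6 were named, 3 higher and 3 lower. G6pdx, the enzyme that starts the pentose phosphate pathway and yields the NADPH that Cbr and Akr enzymes use, was at 15.05, 15.19 and 15.25 in HCC and at 12.34, 11.94 and 11.81 in Apc+/+ liver. It rose by 3.15 (adjusted p = 0.0184 by limma), alone among the 6. Pgd and Taldo1 of the same pathway differed by 2.28 and 0.97, and Pgls, the enzyme between G6pdx and Pgd, by -1.11. Papss2, which makes the sulfate donor of the Sult enzymes, differed by -1.20, and Por, which passes electrons to cytochrome P450, by -1.23.

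Of 16 other NRF2 target genes 6 were named, 4 higher and 2 lower, where 57.7% of all named genes were higher and 19.3% passed. The haem transporter Slc48a1 rose by 2.74 (adjusted p = 0.0163 by limma) and alone passed. The differences of the conjugate exporters were 2.24 for Abcc5, 1.07 for Abcc2 and -2.95 for Abcc3, the last with its HCC mean below the brightest negative control. Biliverdin reductase Blvrb differed by 1.21 and cystathionine synthase Cbs by -2.50. A list of 29 other conjugating and related enzymes included those that add methyl, acetyl or amino acid groups. Of these 29, 8 were named, 1 higher and 7 lower. Nnmt, which methylates nicotinamide, was at 12.79, 12.89 and 13.58 in HCC and at 15.95, 16.93 and 16.82 in Apc+/+ liver. It fell by 3.36 (adjusted p = 0.0363 by limma) and alone passed. Pemt, Acsm3, Tst, Nat1, Inmt and Nat8 differed by -1.73 to -1.06, and Gusb, the glucuronidase that removes glucuronic acid, differed by 2.30. The HCC mean of Acsm3 lay below the brightest negative control.

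Of 20 regulators of detoxification genes 2 were named, both lower. Nr1i3, which encodes the nuclear receptor CAR, was at 9.16, 9.20 and 9.39 in HCC and at 12.69, 12.46 and 12.47 in Apc+/+ liver. It fell by 3.26 (adjusted p = 0.0137 by limma), or 9.55-fold, and by 3.41 within row 1. The 3 HCC arrays were close together here, array 3 included. Cebpa, a hepatocyte transcription factor, differed by -1.50 (adjusted p = 0.121 by limma).

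**Figure D5:**
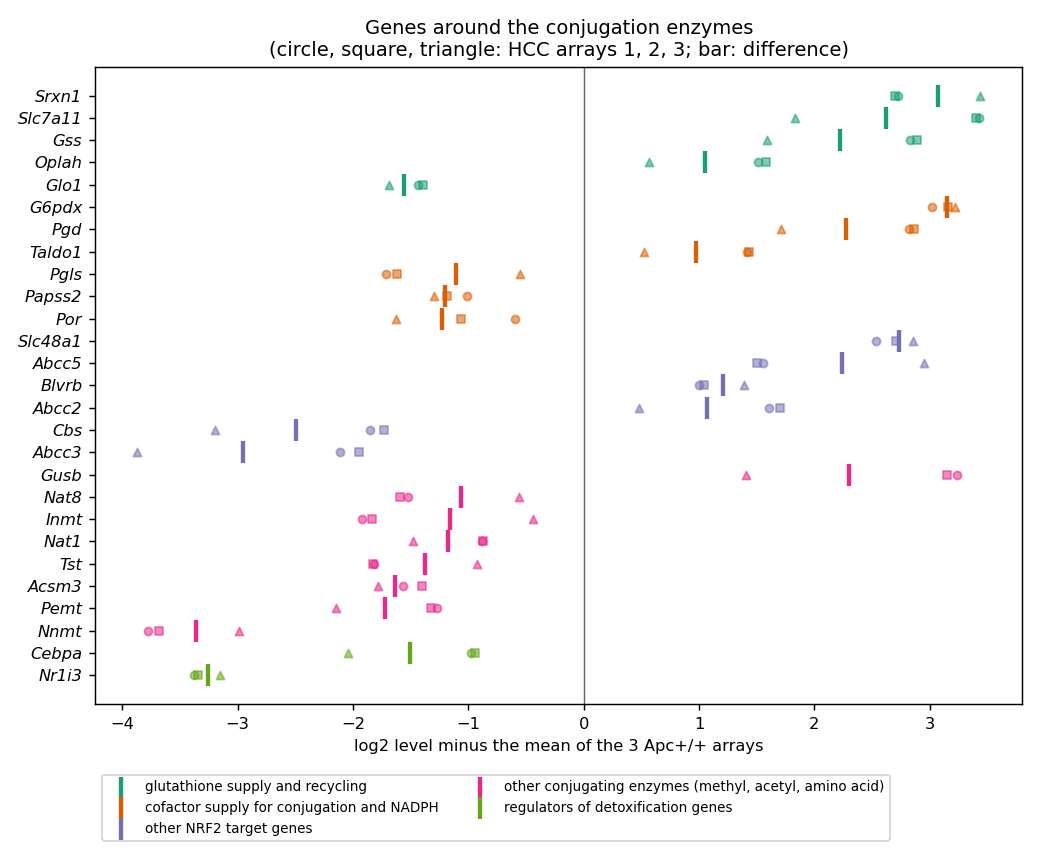
Each line is 1 gene of the 5 lists around the conjugation enzymes, with the log2 level of HCC arrays 1, 2 and 3 minus the Apc+/+ mean as a circle, a square and a triangle and the group difference as a bar. Srxn1 and G6pdx lie near 3 and Nnmt and Nr1i3 beyond -3.

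Markers of cell types could be checked only as far as the table named them, so the labelled tissue itself was not tested against its main markers. Of 9 hepatocyte markers 3 were named (Apoa1, Cebpa and Cps1), all lower and none past the threshold, and their summed level was 14.9 to 16.0 in HCC and 17.0 to 17.7 in Apc+/+ liver on the log2 scale. Of 9 cholangiocyte and progenitor markers 2 were named, both higher. Spp1, or osteopontin, rose by 4.94 (adjusted p = 0.0351 by limma) and Prom1 differed by 2.93, and their summed level was 12.9 to 14.4 in HCC and 8.05 to 9.20 in Apc+/+ liver. Of 10 macrophage and leukocyte markers 2 were named, with differences of 1.49 for Cd74 and 1.75 for Adgre1 and a summed level of 12.1 to 13.6 against 10.9 to 11.6. The stellate cell marker Lrat, 1 of 9, differed by -1.58 and the endothelial marker Pecam1, 1 of 7, by -1.53. None of the markers named was listed at 0. The part of these cell types in the enzyme values was not tested.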

How the data were processed

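Liver RNA of 3 Apcfl/fl and 3 Apc+/+ mice was hybridised to Arraystar mouse lncRNA arrays, which also carry mRNA probes. The authors extracted the scans with Agilent Feature Extraction (version 11.0.1.1, per the submitters' processing notes), and the deposited scanner files hold background-subtracted processed intensities on a linear scale. A further table deposited by the authors gives quantile-normalised log2 values for 4197 probes on 4738 lines, of which 2280 are mRNA probes, and it lists no fold change or p. 2239 of the mRNA probes were named through RefSeq accessions. Levels and differences were taken from this table, with the mean of HCC arrays 1 and 2 counted as 1 sample, a choice made after the arrays had been compared. Tests used limma (version 3.58.1, R 4.3.3, two-sided, eBayes) on quantile-normalised log2 processed intensities of the 45640 probes well above background on at least 3 of 6 arrays. The fit was first tested on simulated data.

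Calls needed an adjusted p under 0.05 and at least a 2-fold change. Nothing in the labels says whether replicates were extracted or labelled separately, so p-values measure the spread between these samples, and the number of samples limits the precision. The members and lists were chosen with earlier results of these data known. Every array's level was to be given for Cbr3 and for up to 2 genes with the largest rise and 2 with the largest fall of each family, and values of the other members as ranges; the level of Cbr1 on each array was added after its values were seen. Normexp, an alternative, took median in place of mean signals, with an offset of 50. Further alternatives were 75th percentile scaling, filters on dim probes, eBayes with trend and robust, 6 arrays as 6 samples, the replicate number and the row of positions as blocks, averaging Apc+/+ arrays 2 and 3, the methods' t-test, other probes of a gene and leaving out each array. No probe could be assigned to Apc here, so its level was not analysed.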

Additional observations from a re-analysis of the deposited data

How the results depend on the processing

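The number of enzymes higher in HCC was 16 under every alternative run. None of the 30 other members' differences reversed over 390 comparisons, of which 40 moved by more than the spread between replicates. Leaving out or averaging arrays could not reverse a direction, since the groups of no enzyme overlapped. The unchanged count is therefore partly fixed by the selection of the table. The Cbr3 difference of 7.86 was 6.98 with normexp and 7.73 to 8.37 with 1 array left out, and the median difference of 0.93 was 0.48 with normexp, 0.62 with the row as a block and 0.82 to 0.94 with 1 array left out. The 7 enzymes whose size moved by over 1.5 times with normexp were the 7 whose lower group lay below the brightest negative control (Akr1b7, Aldh5a1, Cbr2, Ces2f, Sult2b1, Sult2a8 and Sult5a1). The calls depended far more on the settings, and the cause was not tested. In the main fit, 9 of 31 enzymes and 878 of 45640 tested probes were past the adjusted threshold. The filters changed how many were tested. With no filter on dim probes 4 of 31 enzymes and 277 of 59631 probes passed. With a filter on all 6 arrays 14 of 29 enzymes and 1966 of 29700 probes did. Over the 45640 probes there were 14 and 1900 with trend and robust and 21 and 3441 with 6 arrays as samples. Normexp gave 13 and 1651. Averaging Apc+/+ arrays 2 and 3 as well left 0 and 0 by limma (27 and 4534 at an unadjusted p of at most 0.05 with a 2-fold change), as did the row as a block (19 and 3964). The methods' t-test called 31 and 4802 at its own threshold, and 11 and 1629 after Benjamini-Hochberg adjustment. With 1 array left out the counts ran from 0 to 9 and from 0 to 973. No enzyme passed without Apc+/+ array 1, 2 or 3, and 4 enzymes and 361 probes passed without HCC array 3, where the lone HCC sample was assumed to vary like the other group. Cbr3 and Aldh3b1 passed under each setting in which any enzyme passed. The replicate number as a block gave 9 enzymes and 1075 probes, with Akr1b7, Gsta1 and Sult5a1 past the threshold in place of Ces1d, Gstk1 and Sult2a8, and 75th percentile scaling gave 9 and 728, without Akr1c6 and Ces1d and with Gsta1 and Gsta4. The deviations of same-numbered arrays from their group means correlated at 0.06, -0.07 and 0.04, and those of differently numbered arrays at -0.08 to 0.05. With 3 arrays per group and HCC arrays 1 and 2 nearly alike, these values cannot settle whether same-numbered arrays were paired.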
